A study of Rattus norvegicus with 18 samples.

Results

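Lcn2, which encodes the iron-sequestering protein lipocalin-2, and 9 genes that move, store, reduce or oxidize iron were examined in primary rat astrocytes and microglia exposed to fibrils of amyloid-β (Aβ). The 10 genes were Lcn2, Slc40a1, Slc11a1, Slc11a2, Fth1, Ftl1, Tfrc, Steap4, Cp and Hp, out of 17930 gene symbols in the count tables. They were chosen by symbol, with earlier results of these data known. All 10 were present in the tables of both cell types. Each was tested in astrocytes, while in microglia 9 were tested and Hp was too low to pass the filter on counts. Cells came from the cerebral cortex of Sprague-Dawley rat pups at postnatal day 2, with the genotype given as WT and the sex of the pups not given. There were 6 groups of 3 libraries, namely astrocytes and microglia that were left untreated (control), treated with Aβ42 fibrils or treated with Aβ40 fibrils, all for 24 h. Both cell types were separated by shaking from the same kind of mixed glial culture. They were then kept apart in serum-free medium as cultures of a single cell type, and the fibrils were used at a single concentration. The sources do not say whether the 3 replicates of a group were separate cultures, and the p-values therefore measure only the spread between these libraries.

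Cells take up iron bound to transferrin through the transferrin receptor, reduce it from the ferric to the ferrous form with STEAP reductases, and pass it into the cytosol through the divalent metal transporter. Iron that is not used is stored in ferritin, a shell of heavy and light chains, or leaves the cell through ferroportin, after which a ferroxidase such as ceruloplasmin loads it onto transferrin. Part of this control acts on translation and on protein turnover, for ferritin and ferroportin in particular, and such control is not seen in RNA counts. During infection and inflammation, macrophages are known to withhold iron from microbes, and lipocalin-2, haptoglobin and ceruloplasmin are acute-phase proteins. In the brain, lipocalin-2 is known as a product of reactive astrocytes.

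Libraries held 3674043 to 19013919 counts on genes in astrocytes and 2271834 to 22274367 in microglia, and a count of 3 corresponded to 0.160 to 0.835 CPM and 0.130 to 1.38 CPM, limits that cover counting error only. CPM is the usual unit that divides a gene's count by the total of its library, here after TMM scaling within each cell type unless stated otherwise, differences are on the log2 scale from edgeR's quasi-likelihood test, and "rose" and "fell" mean an adjusted p-value under 0.05. The spread between libraries was estimated with information from all genes, since permuting 3 libraries against 3 for 1 gene gives no exact p under 0.1. The 8 astrocyte markers were high in the astrocyte cultures (8578 to 10507 CPM summed in control libraries) and low in the microglia cultures (239 to 268 CPM). The 9 microglial markers showed the opposite, at 7351 to 8403 CPM in control microglia and 306 to 355 CPM in control astrocytes. In the astrocyte cultures the astrocyte markers summed to 5586 to 5822 CPM with Aβ42 and 6193 to 6517 CPM with Aβ40 fibrils, with 5 of 8 down in each and 2 and 3 up, and the microglial markers were lower after treatment, at 56.6 to 79.1 CPM with Aβ42 fibrils (8 of 9 fell) and 32.3 to 44.9 CPM with Aβ40 fibrils (9 of 9 fell). In the microglia cultures it was 1927 to 3138 and 2751 to 3412 CPM, with 7 and 8 of 9 down and 1 up. In bulk RNA, fewer cells of a type and less RNA per cell cannot be told apart. Facts about single libraries bear on the values below, namely that the tables of control astrocyte replicate 2 and Aβ42 astrocyte replicate 3 carry another style of name than the other astrocyte tables, and that the smallest library of the Aβ42 fibril-treated microglia (replicate 1) held far fewer counts than the other 2.

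In astrocytes, Lcn2, Steap4, Slc11a2, Cp and Hp rose with both fibrils, Slc11a1 and Tfrc fell with both, and Slc40a1, Fth1 and Ftl1 did not pass the test with either. With Aβ42 fibrils 5 of the 10 genes rose, where 16.5% of the 11690 genes tested rose, and 2 fell, where 20.4% of all genes fell. With Aβ40 fibrils 5 rose and 2 fell against 14.9% and 18.4% of all genes. A rise of 5-fold or more, the size used in the study, was reached by 4 of the 10 with Aβ42 fibrils (Lcn2, Steap4, Slc11a2 and Hp; 3.03% of all genes) and by 2 with Aβ40 fibrils (Lcn2 and Steap4; 2.82% of all genes). The median log2 difference of the 10 genes was 1.16 and 1.03, beside a median of -0.0047 and 0.0017 over all genes tested. In microglia, Lcn2, Steap4, Slc11a1, Slc11a2, Fth1 and Tfrc rose with both fibrils and Slc40a1 fell with both. Of the 9 genes tested, 6 rose and 1 fell with Aβ42 fibrils, where 27.1% and 26.6% of 10837 genes did so, and 7 rose and 1 fell with Aβ40 fibrils, where 19.6% and 21.4% did so. Leaving out any 1 of the 6 libraries compared lowered this count of 7 to 4 or 5, 4 being reached without control replicate 2 and without Aβ40 replicate 2. Only Lcn2 and Steap4 of the 9 rose 5-fold or more, with each fibril (3.69% and 3.36% of all genes). The median log2 difference of the 9 was 0.70 and 0.41, beside 0.0096 and 0.0054 over all genes. Counted by libraries that did not overlap with control, whatever the test, 5 of the 10 genes were higher and 2 lower in astrocytes with each fibril, beside 45.7% and 43.2% of all genes in either direction, and 7 of the 9 were higher and 1 lower in microglia with each, beside 54% and 59.5%. Both fibril comparisons of a cell type used the same control libraries and are not independent of each other. Because the genes were chosen with earlier results of these data known, their counts and medians beside those of all genes are descriptive only.

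**Figure D1:**
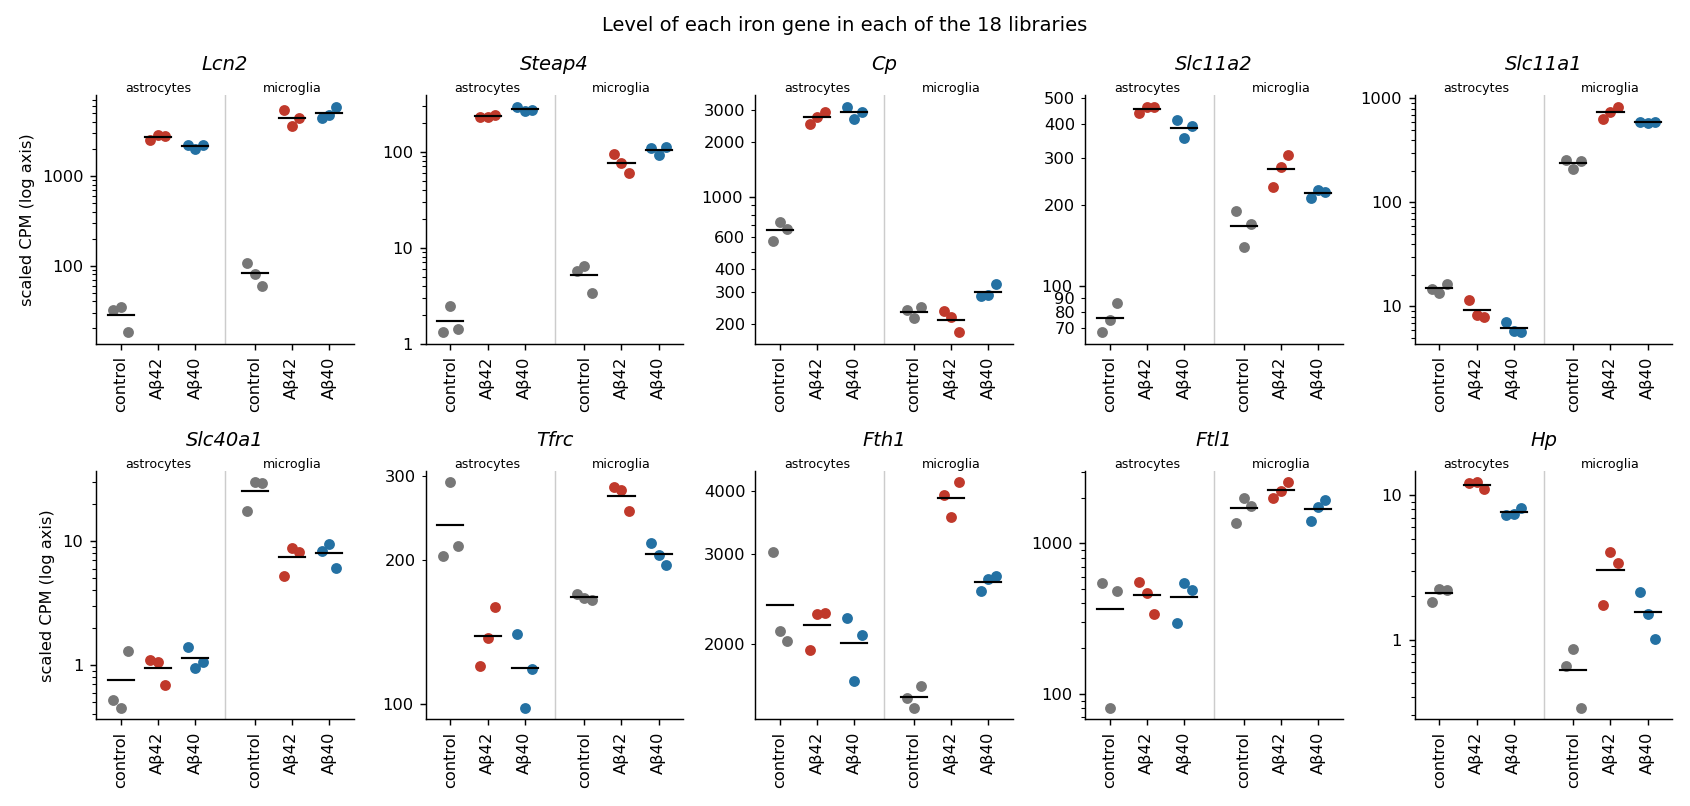
Level of each of the 10 iron genes in each of the 18 libraries, as CPM scaled over all 18 libraries together on a log axis, with 1 point per library, grey for control, red for Aβ42 fibrils and blue for Aβ40 fibrils, and a line at the group mean. Lcn2 and Steap4 were higher in every treated library than in every control library of both cell types, while Slc11a1 and Tfrc were lower after treatment in astrocytes and higher in microglia.

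Lcn2 encodes a secreted protein that binds bacterial siderophores and so keeps iron from microbes. In control astrocytes it stood at 34.0, 37.3 and 19.5 CPM in the 3 replicates, from 122, 156 and 277 counts. Aβ42 fibril-treated astrocytes reached 2648, 3004 and 2923 CPM, and Aβ40 fibril-treated astrocytes 2296, 2134 and 2329.8 CPM. Every treated library was far above every control library, and the 3 Aβ42 libraries were all above the 3 Aβ40 libraries. The rise was 96.9-fold with Aβ42 fibrils, log2 6.60 (SE 0.25, adjusted p = 1.29e-08), and 76.4-fold with Aβ40 fibrils, log2 6.25 (SE 0.24, adjusted p = 1.80e-08). Control microglia had 96.8, 72.6 and 53.2 CPM, Aβ42 fibril-treated microglia 4942, 3174 and 3869 CPM and Aβ40 fibril-treated microglia 3964, 4237 and 5359 CPM. Again no treated library came near the control libraries, but the libraries of the 2 fibrils overlapped. Microglial Lcn2 rose 53.6-fold with Aβ42 fibrils, log2 5.75 (SE 0.26, adjusted p = 4.74e-09), and 60.7-fold with Aβ40 fibrils, log2 5.92 (SE 0.26, adjusted p = 4.99e-09). Neutrophils are another known source of lipocalin-2. Their 6 markers summed to at most 3.66 CPM in the 9 astrocyte libraries, and in microglia to 43.8 to 54.0 CPM in control, 4.80 to 15.3 CPM with Aβ42 fibrils and 9.84 to 15.2 CPM with Aβ40 fibrils. In microglia 2 of the 3 markers tested rose with each fibril and 1 fell. On the scale of all 18 libraries, S100a8 had means of 0.0719, 5.44 and 3.51 CPM and S100a9 of 0.0437, 4.91 and 7.35 CPM in control, Aβ42 and Aβ40 fibril-treated microglia, while Csf3r, which carried most of the sum, went from 54.3 to 1.41 and 3.48 CPM. Mpo was at 0 counts in all 9 microglia libraries. The part of such cells in the rise of Lcn2 was not tested.

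The 250 bases before the start of Lcn2 are shown because Lcn2 rose 5-fold or more in all 4 fibril comparisons. RefSeq places them at chr3:36081781-36082030 on the minus strand of the GRCr8 assembly. The counts were made on an older assembly (rn5), so these coordinates belong to RefSeq alone. The sequence runs 5′ to 3′ along the gene, and capitals mark letters that match an NF-κB motif (GGGA, any 4 bases, then CC) or the C/EBP motif TTNNGNAA on either strand.
Lcn2: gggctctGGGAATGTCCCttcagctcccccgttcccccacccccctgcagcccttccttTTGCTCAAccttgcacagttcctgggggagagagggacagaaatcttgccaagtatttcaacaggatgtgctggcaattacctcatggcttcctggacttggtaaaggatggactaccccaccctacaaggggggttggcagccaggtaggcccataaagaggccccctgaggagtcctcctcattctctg
The NF-κB letters lie 243 to 234 bases before the start, and a second match on the other strand, at 242 to 233, overlaps them. The C/EBP letters lie 191 to 184 bases before the start. Of 33469 rat promoters of this length, 16.4% hold the NF-κB letters and 37.2% the C/EBP letters. A match therefore describes the sequence and does not show whether it is bound, and binding was not measured.

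Steap4 encodes a metalloreductase of the cell and endosome membrane that reduces ferric iron and copper. It was scarcely detected in control astrocytes, at 1.39, 2.63 and 1.55 CPM from 5, 11 and 22 counts. Treated astrocytes held 243, 244 and 252 CPM with Aβ42 fibrils and 305, 281 and 286 CPM with Aβ40 fibrils. All treated libraries were above all control libraries, and the 3 Aβ40 libraries were above the 3 Aβ42 libraries, in the reverse order to Lcn2. The rise was 139-fold and 163-fold, log2 7.11 (SE 0.19, adjusted p = 2.22e-09) and log2 7.35 (SE 0.19, adjusted p = 2.28e-09). These were the 34th and 25th largest log2 rises among 11690 genes. Control microglia held 5.18, 5.79 and 3.05 CPM, against 85.6, 66.4 and 52.3 CPM with Aβ42 fibrils and 98.0, 82.8 and 102 CPM with Aβ40 fibrils. The groups did not overlap with control, and the rise of 14.3-fold (log2 3.84, SE 0.24, adjusted p = 6.48e-08) and 20.1-fold (log2 4.33, SE 0.24, adjusted p = 3.10e-08) was smaller than that in astrocytes. That difference between the cell types was tested by itself and is given with the other such tests below.

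The 250 bases before the start of Steap4 (chr4:27054770-27055019, minus strand, GRCr8) are shown beside those of Lcn2 because these were the genes of the set that rose 5-fold or more in all 4 fibril comparisons. Capitals mark the same motifs and the STAT motif TTCNNNGAA, which 7.67% of the promoters hold.
Steap4: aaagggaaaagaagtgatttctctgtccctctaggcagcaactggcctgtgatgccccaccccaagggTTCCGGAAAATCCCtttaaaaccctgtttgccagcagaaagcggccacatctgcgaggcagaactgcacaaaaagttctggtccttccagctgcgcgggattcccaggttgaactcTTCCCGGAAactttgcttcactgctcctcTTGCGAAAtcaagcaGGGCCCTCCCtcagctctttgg
The NF-κB letters occur at 178 to 169 and at 22 to 13 bases before the start, the C/EBP letters at 182 to 175 and 37 to 30, and the STAT letters at 66 to 58. The first NF-κB and C/EBP matches overlap, so that 1 run of capitals holds both. Of the 10 genes, 6 have an entry in the promoter table, and the antioxidant response element TGACNNNGC (10.1% of all promoters) was not found in any of them in this window.

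Cp encodes ceruloplasmin, the copper-containing ferroxidase that astrocytes are known to carry on their surface. It stood at 610.3, 773 and 720.3 CPM in control astrocytes, 2687, 2910.1 and 3059 CPM with Aβ42 fibrils and 3264, 2878 and 3096 CPM with Aβ40 fibrils. The treated libraries were all well above control, and those of the 2 fibrils overlapped. The rise was 4.11-fold (log2 2.04, SE 0.13, adjusted p = 4.21e-07) and 4.39-fold (log2 2.13, SE 0.13, adjusted p = 3.58e-07), short of the 5-fold of the study. In microglia Cp was lower and changed little, at 214, 193 and 225 CPM in control, 218, 193 and 158 CPM with Aβ42 fibrils and 256, 258 and 303 CPM with Aβ40 fibrils. It did not pass the test with Aβ42 fibrils, where the libraries overlapped with control (log2 -0.16, SE 0.13, adjusted p = 0.317). With Aβ40 fibrils it rose 1.29-fold (log2 0.37, SE 0.13, adjusted p = 0.0404), a call that was lost when any 1 of the 6 libraries compared was left out, at adjusted p-values of 0.0547 to 0.156. Without Aβ42 replicate 1, Cp fell in the Aβ42 fibril-treated microglia at log2 -0.27 and an adjusted p of 0.0289. The 250 bases before its start (chr2:104368420-104368669, plus strand, GRCr8) are given because Cp rose in astrocytes with both fibrils. They hold the C/EBP letters at 72 to 65 bases before the start and no NF-κB letters. The NF-κB letters are also in the promoter entry of Slc40a1, which did not rise in any comparison with control, and in 1 of 2 entries of Slc11a2, and none of the 4 motifs is in that of Tfrc. Slc11a2 rose in all 4 fibril comparisons, but its entries are not printed. They hold no C/EBP letters, and 1 of the 2 holds none of the 4 motifs.
Cp: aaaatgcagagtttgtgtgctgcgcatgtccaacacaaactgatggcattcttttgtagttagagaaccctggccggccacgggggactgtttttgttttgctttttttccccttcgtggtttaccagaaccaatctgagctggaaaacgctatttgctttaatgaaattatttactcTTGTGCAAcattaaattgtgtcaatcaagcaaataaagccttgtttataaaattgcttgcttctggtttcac

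Hp encodes haptoglobin, the plasma protein that binds free haemoglobin. Its counts were low throughout, with 7, 10 and 34 in control astrocytes, 188, 128 and 95 with Aβ42 fibrils and 73, 148 and 131 with Aβ40 fibrils. As CPM these were 1.95, 2.39 and 2.39, then 12.9, 12.9 and 11.4, then 7.59, 7.92 and 8.70. The 3 astrocyte groups did not overlap, Aβ42 being the highest. Hp rose 5.40-fold with Aβ42 fibrils (log2 2.43, SE 0.18, adjusted p = 2.05e-06) and 3.51-fold with Aβ40 fibrils (log2 1.81, SE 0.19, adjusted p = 2.37e-05). In microglia the counts were 5, 4 and 2 in control, 4, 82 and 52 with Aβ42 fibrils and 8, 6 and 2 with Aβ40 fibrils, which did not pass the filter of the microglia fit. As CPM these were 0.589, 0.773 and 0.305, then 1.60, 3.55 and 2.97, then 1.93, 1.34 and 0.919, and no test was made.

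**Figure D2:**
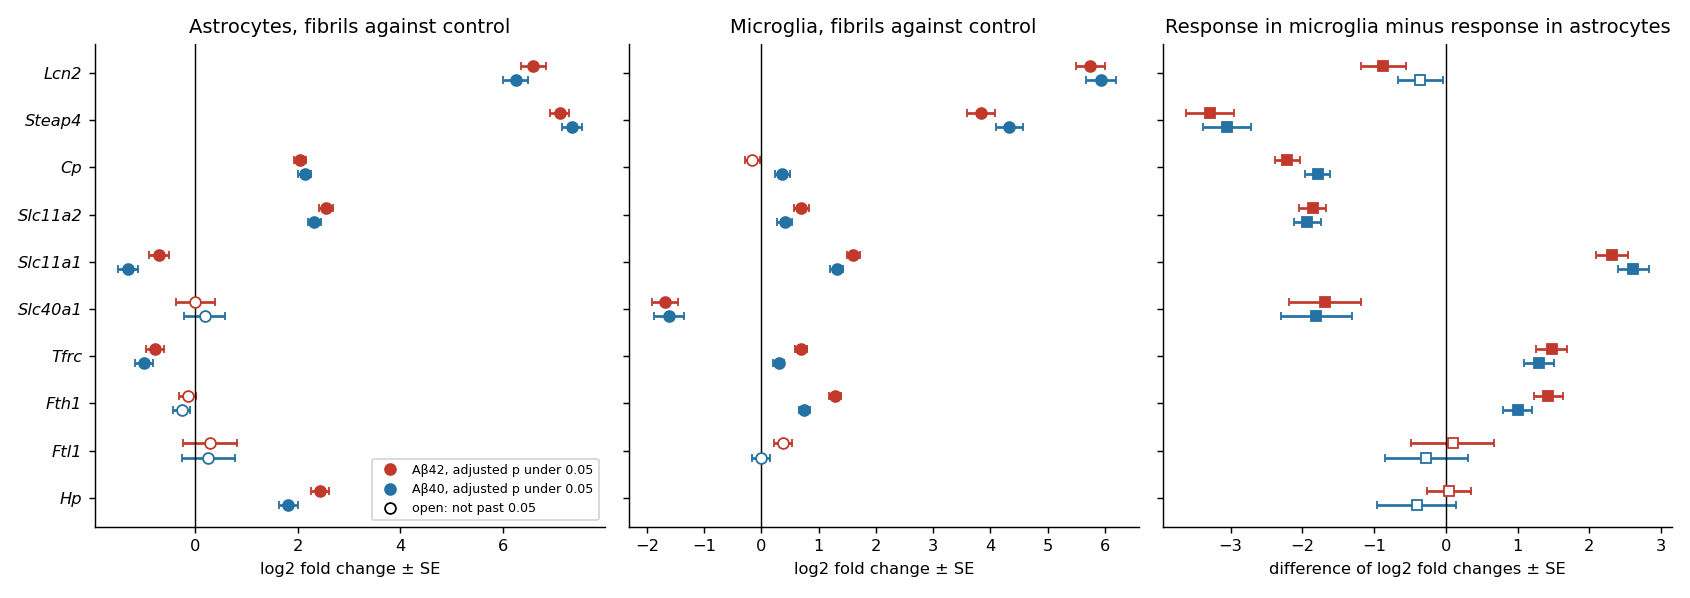
Log2 difference of each gene from control with Aβ42 (red) and Aβ40 (blue) fibrils in astrocytes (left) and microglia (middle), and the response in microglia minus that in astrocytes (right), with bars of 1 standard error from the edgeR fit, filled symbols for an adjusted p-value under 0.05 and open ones for the rest. Hp was not tested in microglia alone. Slc11a1 and Tfrc lie on opposite sides of 0 in the 2 cell types, and Lcn2 and Steap4 lie farthest to the right in both.

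The 2 metal transporters of the NRAMP family behaved differently from each other. Slc11a2 encodes the divalent metal transporter DMT1, which brings ferrous iron into the cytosol. Control astrocytes held 71.5, 79.7 and 93.6 CPM, Aβ42 fibril-treated astrocytes 469, 489 and 483 CPM and Aβ40 fibril-treated astrocytes 433, 379 and 417 CPM. All 3 groups were separate, with Aβ42 the highest. The rise was 5.86-fold (log2 2.55, SE 0.13, adjusted p = 1.06e-07) and 4.998-fold (log2 2.32, SE 0.13, adjusted p = 2.21e-07), so that Aβ40 fibrils fell just short of the 5-fold of the study. In microglia the rise was smaller, from 171, 125 and 154 CPM in control to 214, 245 and 269.7 CPM and 190.4, 203 and 204 CPM. The treated libraries were all above control, by 1.62-fold with Aβ42 fibrils (log2 0.70, SE 0.13, adjusted p = 6.97e-04) and 1.33-fold with Aβ40 fibrils (log2 0.41, SE 0.13, adjusted p = 0.0246). The second of these calls was lost without control replicate 2, Aβ40 replicate 2 or Aβ40 replicate 3, at adjusted p-values of 0.0745, 0.0798 and 0.0704.

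Slc11a1 encodes NRAMP1, a metal transporter of the phagosome membrane of macrophages. In microglia it rose from 228, 186 and 229 CPM to 576, 653 and 729 CPM with Aβ42 fibrils and 536, 516 and 545 CPM with Aβ40 fibrils. The 3 groups did not overlap. The differences were 3.05-fold (log2 1.61, SE 0.12, adjusted p = 3.30e-07) and 2.48-fold (log2 1.31, SE 0.12, adjusted p = 2.43e-06). The 9 microglial markers as a sum moved the other way in the same libraries, as given above. In the astrocyte cultures Slc11a1 was low and fell, from 15.6, 14.4 and 17.9 CPM in control to 12.4, 8.79 and 8.17 CPM and 7.38, 6.26 and 5.98 CPM. No treated astrocyte library reached the lowest control library, and the fall was 1.64-fold with Aβ42 fibrils (log2 -0.71, SE 0.19, adjusted p = 0.0142) and 2.48-fold with Aβ40 fibrils (log2 -1.31, SE 0.20, adjusted p = 3.85e-04). The first of these was lost without control replicate 3, Aβ42 replicate 2 or Aβ42 replicate 3, at adjusted p-values of 0.0580, 0.0680 and 0.0564. The microglial markers in these same cultures fell as well, with a summed level of 306 to 355 CPM in control and at most 79.1 CPM after treatment. Their part in the fall of Slc11a1 was not tested.

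**Figure D3:**
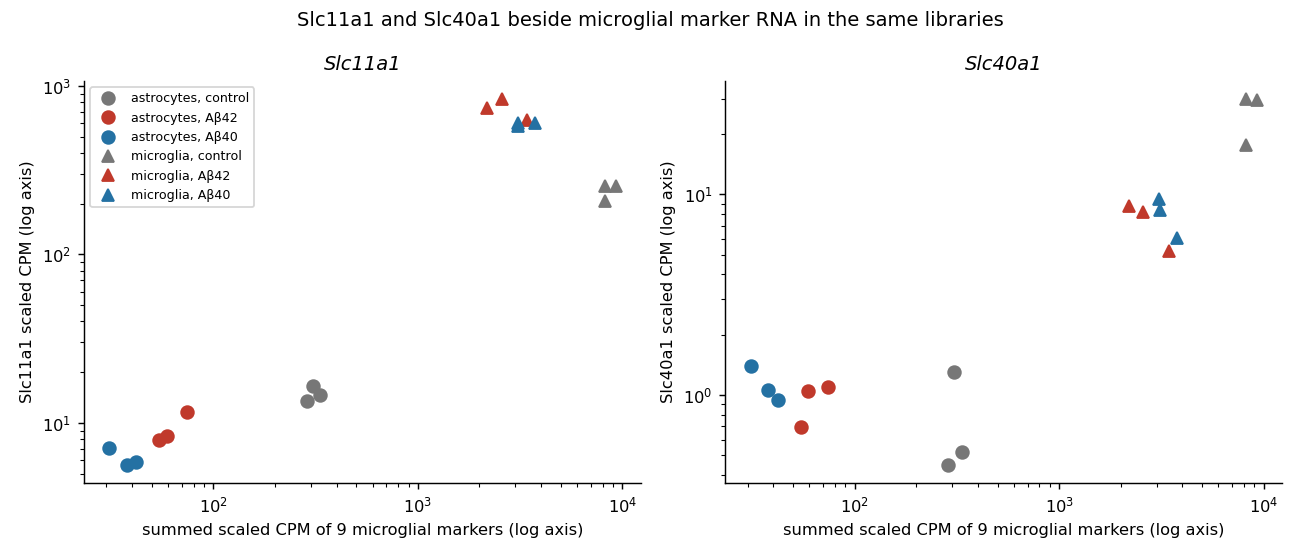
Levels of Slc11a1 (left) and Slc40a1 (right) against the summed level of the 9 microglial markers in the 9 astrocyte and 9 microglia libraries, 1 point per library, both as CPM scaled over all 18 libraries together and on log axes. In astrocytes (circles) the control libraries lie highest in markers and in Slc11a1, and in microglia (triangles) the treated libraries lie lower in markers, higher in Slc11a1 and lower in Slc40a1.

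Tfrc encodes the transferrin receptor, the main entry of transferrin-bound iron. Control astrocytes held 217, 310.0 and 232 CPM, against 128, 145 and 166 CPM with Aβ42 fibrils and 146, 105 and 125 CPM with Aβ40 fibrils. Every treated library was below every control library. The fall was 1.73-fold (log2 -0.79, SE 0.18, adjusted p = 0.00472) and 2.02-fold (log2 -1.01, SE 0.18, adjusted p = 0.00113). Control microglia lay close together at 153, 149 and 149 CPM, and treated microglia held 260.3, 247 and 222 CPM with Aβ42 fibrils and 195, 183 and 177 CPM with Aβ40 fibrils. The 3 microglial groups did not overlap, with control the lowest. Tfrc rose 1.61-fold with Aβ42 fibrils (log2 0.69, SE 0.10, adjusted p = 8.66e-05) and 1.23-fold with Aβ40 fibrils (log2 0.30, SE 0.10, adjusted p = 0.0274). The Aβ40 call was lost without any 1 of the control replicates, Aβ40 replicate 1 or Aβ40 replicate 2, at adjusted p-values of 0.0540 to 0.112.

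Slc40a1 encodes ferroportin, the iron exporter of the cell membrane. In microglia it fell with both fibrils, from 15.8, 26.7 and 26.7 CPM in control to 4.80, 7.75 and 7.13 CPM with Aβ42 fibrils and 7.48, 8.50 and 5.52 CPM with Aβ40 fibrils. The lowest control library was well above the highest treated library. The fall was 3.22-fold (log2 -1.68, SE 0.23, adjusted p = 5.87e-05) and 3.07-fold (log2 -1.62, SE 0.26, adjusted p = 3.33e-04), resting on 134, 138 and 175 counts in control, 12, 179 and 125 with Aβ42 fibrils and 31, 38 and 12 with Aβ40 fibrils. The summed microglial markers fell in the same libraries, and their part in this result was not tested. In astrocytes Slc40a1 was close to the detection limit, with 2, 2 and 20 counts in control, 17, 11 and 6 with Aβ42 fibrils and 14, 19 and 17 with Aβ40 fibrils. Neither difference passed the test, with log2 -0.0067 (SE 0.38, adjusted p = 0.990) and log2 0.18 (SE 0.39, adjusted p = 0.889). Small changes could be missed at this depth.

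Ferritin was represented by both of its chains. Fth1 encodes the heavy chain, which oxidizes the iron that enters the shell. In microglia it rose from 1414, 1343 and 1498 CPM to 3587, 3132 and 3637 CPM with Aβ42 fibrils and 2279.6, 2407 and 2473 CPM with Aβ40 fibrils. The 3 groups did not overlap, with Aβ42 the highest and control the lowest. The rise was 2.43-fold (log2 1.28, SE 0.10, adjusted p = 5.90e-07) and 1.68-fold (log2 0.75, SE 0.10, adjusted p = 7.10e-05). In astrocytes the Fth1 groups overlapped, at 3224, 2260.0 and 2196 CPM in control, 2079, 2426 and 2396 CPM with Aβ42 fibrils and 2352, 1818 and 2218 CPM with Aβ40 fibrils, and neither difference passed the test, with log2 -0.15 (SE 0.17, adjusted p = 0.507) and log2 -0.27 (SE 0.17, adjusted p = 0.254).

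Ftl1 encodes the light chain, on which the iron core forms. Microglia held 1238, 1788 and 1595 CPM in control, 1823, 1961 and 2229 CPM with Aβ42 fibrils and 1265, 1573 and 1767 CPM with Aβ40 fibrils. The Aβ42 libraries lay above all control libraries without passing the test (log2 0.38, SE 0.16, adjusted p = 0.0565), and the Aβ40 libraries overlapped with control (log2 -0.01, SE 0.16, adjusted p = 0.984). The Aβ42 difference did pass without control replicate 2 (adjusted p = 0.0317), without Aβ42 replicate 1 (adjusted p = 0.0136), with no filter (adjusted p = 0.0475) and by DESeq2 (adjusted p = 0.0496). In astrocytes 1 control library stood apart, with 576, 85.4 and 519 CPM in control replicates 1, 2 and 3. The treated libraries held 591, 492 and 350.2 CPM with Aβ42 fibrils and 309, 581 and 516 CPM with Aβ40 fibrils, all above control replicate 2 and overlapping with the other controls. Neither difference passed the test, with log2 0.28 (SE 0.52, adjusted p = 0.718) and log2 0.25 (SE 0.52, adjusted p = 0.754), and without control replicate 2 both turned negative, to -0.19 and -0.22 on the log2 scale. Both ferritin genes have many near-identical processed copies in mammalian genomes, and how reads shared with such copies were counted is not given, so their levels are uncertain.

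Direct comparison of the 2 fibrils showed small differences. In astrocytes none of the 10 genes passed edgeR's quasi-likelihood test, where 0.0599% of all genes were higher and 0.0257% lower with Aβ42 fibrils, although Slc11a1 and Hp had an unadjusted p under 0.05 and DESeq2 called none of the 10. Lcn2, Slc11a1, Slc11a2 and Hp were higher in all 3 Aβ42 libraries and Steap4 in all 3 Aβ40 libraries, 5 of 10 genes without overlap beside 18.9% of all genes. The differences in astrocytes were log2 0.34 (SE 0.19) for Lcn2, 0.62 (SE 0.14) for Hp and -0.24 (SE 0.13) for Steap4. When only the 6 libraries compared were fitted, Lcn2 and Hp passed, at adjusted p-values of 0.0429 and 0.0284. In microglia, Fth1 (log2 0.53, SE 0.10, adjusted p = 0.0125) and Tfrc (log2 0.39, SE 0.10, adjusted p = 0.0257) were higher with Aβ42 fibrils, where 11.3% of all genes were, and Cp was lower (log2 -0.53, SE 0.13, adjusted p = 0.0255), where 9.01% were. These 3 calls depended on the libraries used. None of the 3 passed when only the 6 libraries were fitted, or when Aβ42 replicate 3, Aβ40 replicate 1 or Aβ40 replicate 2 was left out, while leaving out the small Aβ42 replicate 1 gave 6 genes higher and 2 lower. Without overlap of the libraries 5 of the 9 genes were higher and 1 lower, beside 29.3% of all genes. Lcn2 in microglia differed between the fibrils by log2 -0.18 (SE 0.21, adjusted p = 0.540).

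Untreated microglia and untreated astrocytes differed in all 10 genes by the test, 6 being higher in microglia and 4 lower, where 34.2% and 34.5% of 11581 genes were. Among the 10, the calls for Slc40a1 and Hp are limited by their counts and by the filter, as given below. In none of the 10 did the control libraries of the cell types overlap, beside 67.1% of all genes without overlap. For this comparison the 18 libraries were scaled together, and cell type cannot be told apart from whatever else went with the preparation of each culture. Slc40a1 was 25.9-fold higher in microglia (log2 4.69, SE 0.32, adjusted p = 1.67e-10), at 25.6 ± 6.98 against 0.758 ± 0.472 CPM (mean ± SD, n = 3), the astrocyte libraries holding only 2, 2 and 20 counts. It entered the fit of 18 libraries through the microglia, which favours a higher level there, so no conclusion is drawn from the Slc40a1 call. Slc11a1 was 15.7-fold higher (log2 3.98, SE 0.16, adjusted p = 1.13e-13), at 238 ± 26.0 against 14.9 ± 1.57 CPM. Ftl1 (log2 2.22), Steap4 (log2 1.65), Lcn2 (log2 1.59) and Slc11a2 (log2 1.12) were also higher in microglia, with adjusted p-values from 3.99e-07 to 1.32e-04. Hp, Cp, Fth1 and Tfrc were lower in microglia, at log2 -1.80, -1.48, -0.60 and -0.50, with adjusted p-values of 2.91e-04, 3.77e-09, 9.78e-04 and 0.00587. Hp rested on only 5, 4 and 2 counts in control microglia and 7, 10 and 34 in control astrocytes. It failed the filter within microglia and entered the fit of 18 libraries through the astrocytes. That filter favours a lower level in microglia, so no conclusion is drawn from the Hp call. Scaling by library totals moved the median of all genes by -0.28 on the log2 scale in this comparison and the share of higher genes among those called from 49.8% to 37.4%, and kept the direction and the call of all 10.

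The response to the fibrils was set against the other cell type by testing the difference of the log2 changes, microglia minus astrocytes. With Aβ42 fibrils 8 of the 10 genes differed in response, 3 with a higher change in microglia and 5 with a lower one, where 19.3% and 17.9% of all genes did so. With Aβ40 fibrils 3 were higher and 4 lower, beside 16% and 16.5%. Slc11a1 and Tfrc moved in opposite directions, Slc11a1 by 2.31 with Aβ42 fibrils (SE 0.22, adjusted p = 1.30e-07) and 2.61 with Aβ40 fibrils (SE 0.22, adjusted p = 3.92e-08), and Tfrc by 1.47 (SE 0.21, adjusted p = 2.10e-05) and 1.29 (SE 0.21, adjusted p = 9.77e-05). Steap4, Cp and Slc11a2 changed less in microglia than in astrocytes. For Steap4 the difference of the responses was -3.29 (SE 0.34, adjusted p = 3.80e-07) with Aβ42 fibrils and -3.05 (SE 0.34, adjusted p = 1.17e-06) with Aβ40 fibrils. The response of Lcn2 was smaller in microglia with Aβ42 fibrils, with a difference of -0.87 (SE 0.32, adjusted p = 0.0363), and with Aβ40 fibrils the difference of -0.36 did not pass the test (adjusted p = 0.422). This Lcn2 call was lost in 11 of 19 alternative analyses, at adjusted p-values of 0.0526 to 0.132, including those without astrocyte control replicate 3, Aβ42 astrocyte replicate 2 or 3, microglia control replicate 1 or 2, and Aβ42 microglia replicate 2 or 3.

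On the scale common to all 18 libraries, Lcn2 was highest in treated microglia, at 5017 ± 779 CPM with Aβ40 fibrils and 4471 ± 899 CPM with Aβ42 fibrils, groups that overlapped. Below these came Aβ42 fibril-treated astrocytes (2714 ± 199 CPM), Aβ40 fibril-treated astrocytes (2130.5 ± 118 CPM), control microglia (82.6 ± 24.4 CPM) and control astrocytes (28.3 ± 9.06 CPM), with no overlap between neighbours. Steap4 had another order, with treated astrocytes (275 ± 16.1 CPM with Aβ40 and 234 ± 7.70 CPM with Aβ42 fibrils) above treated microglia (104 ± 10.5 and 76.2 ± 16.9 CPM, overlapping) and both above control microglia and control astrocytes. Cp and Slc11a2 were likewise highest in treated astrocytes. Slc11a1 ran from 734 ± 101 CPM in Aβ42 fibril-treated microglia to 6.19 ± 0.781 CPM in Aβ40 fibril-treated astrocytes, with no overlap between any neighbours in the order. Fth1 was highest in Aβ42 fibril-treated microglia (3874 ± 299.6 CPM) and lowest in control microglia (1576 ± 77.6 CPM), the astrocyte groups lying between. For Tfrc, Aβ42 fibril-treated microglia (273 ± 16.9 CPM) and control astrocytes (236 ± 47.5 CPM) headed the order and overlapped. Slc40a1 was highest in control microglia, followed by treated microglia, which overlapped with each other, and by the 3 astrocyte groups at 1.14 ± 0.232 CPM or less, which also overlapped. The 3 microglial groups stood highest for Ftl1, overlapping from 2253 ± 277 down to 1704 ± 271 CPM, and the 3 astrocyte groups followed, overlapping as well. Hp was highest in Aβ42 fibril-treated astrocytes (11.8 ± 0.699 CPM), then in Aβ40 fibril-treated astrocytes (7.62 ± 0.498 CPM).

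Another 60 genes of iron and haem metabolism were examined as lists of uptake and transfer, storage, iron sensing, haem and mitochondrial iron. These lists were also chosen with earlier results of these data known. Of the 60 genes, 55 were in the tables, 46 were tested in astrocytes and 43 in microglia. In astrocytes 15 rose and 4 fell with Aβ42 fibrils (median log2 difference 0.18), and 12 rose and 3 fell with Aβ40 fibrils (0.097), where 16.5% rose and 20.4% fell of all genes with Aβ42 and 14.9% and 18.4% with Aβ40 fibrils. In microglia 14 rose and 13 fell with Aβ42 fibrils (-0.016), and 10 rose and 14 fell with Aβ40 fibrils (-0.26), where 27.1% rose and 26.6% fell of all genes with Aβ42 and 19.6% and 21.4% with Aβ40 fibrils, so that the Aβ42 counts lay close to the share of all genes. In astrocytes the list of uptake and transfer held the most calls, with 6 of 13 genes up and 3 down with Aβ42 fibrils. Among these are Tfr2 (up) and Heph (down), whose calls the filter favours as given below. In microglia 6 of 16 haem genes fell and 4 rose with Aβ42 fibrils, the 4 including Hpx, whose call the filter favours as given below. Of the 3 storage genes tested, none rose in the 4 comparisons by edgeR's test, and 1 and 2 fell in microglia with Aβ42 and Aβ40 fibrils.

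Hpx, which encodes the haem-binding plasma protein hemopexin, rose in astrocytes with both fibrils, and its calls in microglia are limited as given below. In astrocytes it went from 2.31 ± 0.678 to 60.6 ± 3.84 CPM with Aβ42 fibrils, log2 4.58 (SE 0.20, adjusted p = 4.11e-08), and reached 34.1 ± 3.34 CPM with Aβ40 fibrils, log2 3.75 (SE 0.20, adjusted p = 1.84e-07). In microglia its level stayed under 5 CPM in every group mean, and the rise was log2 3.04 (SE 0.42, adjusted p = 7.68e-05) and log2 2.44 (SE 0.54, adjusted p = 0.00336). It rested on 3, 4 and 1 counts in control, 4, 85 and 62 with Aβ42 fibrils and 10, 10 and 4 with Aβ40 fibrils. The control counts lie at the detection limit, so the size of this rise is uncertain, and Hpx entered the microglia fit through the treated libraries. That filter favours a rise, so no conclusion is drawn from the microglial Hpx calls. Slc39a14, an importer of iron that is not bound to transferrin, rose in all 4 comparisons. In astrocytes it went from 41.8 ± 9.70 to 323 ± 12.1 CPM with Aβ42 fibrils, log2 2.95 (SE 0.16, adjusted p = 1.79e-07), and to 266 ± 14.6 CPM with Aβ40 fibrils, log2 2.67 (SE 0.16, adjusted p = 4.02e-07). In microglia the rise was log2 1.85 (SE 0.12, adjusted p = 9.68e-08) and log2 1.89 (SE 0.12, adjusted p = 1.20e-07). Tf, which encodes transferrin, rose in astrocytes from 359 ± 72.0 to 2619 ± 215 CPM with Aβ40 fibrils, log2 2.86 (SE 0.16, adjusted p = 2.06e-07), and to 2695 ± 153 CPM with Aβ42 fibrils, log2 2.90 (SE 0.16, adjusted p = 1.71e-07). It also rose in microglia, by log2 1.61 (SE 0.19, adjusted p = 2.04e-05) and log2 0.995 (SE 0.19, adjusted p = 0.00113). Tfr2, a second transferrin receptor, rose in astrocytes from a near-absent control level, log2 3.01 (SE 0.43, adjusted p = 2.57e-04) and log2 3.40 (SE 0.42, adjusted p = 9.49e-05). Control astrocytes held 3, 0 and 13 Tfr2 counts, so the gene entered the fit through the treated libraries. That filter favours a rise, and no conclusion is drawn from the Tfr2 calls. Among the genes that fell in astrocytes were Heph, which encodes the ferroxidase hephaestin, by log2 -2.52 (SE 0.31, adjusted p = 7.33e-05) and log2 -2.45 (SE 0.29, adjusted p = 6.92e-05), and the endocytic receptor Cubn, by log2 -2.78 (SE 0.22, adjusted p = 3.02e-06) and log2 -2.31 (SE 0.21, adjusted p = 8.76e-06). Heph was low in control astrocytes, at 3.62, 5.98 and 5.35 CPM from 13, 25 and 76 counts, against 381, 383 and 415 CPM in control microglia. Treated astrocytes held 15, 8 and 6 Heph counts with Aβ42 and 7, 14 and 19 with Aβ40 fibrils, so Heph entered the fit through the control libraries. That filter favours a fall, and no conclusion is drawn from the Heph calls in astrocytes. The microglial markers fell in the same astrocyte cultures, and their part in the fall of Heph was not tested. The related receptor Lrp2 fell with Aβ42 fibrils, log2 -0.91 (SE 0.14, adjusted p = 3.47e-04), and did not pass the test with Aβ40 fibrils, log2 -0.33 (SE 0.13, adjusted p = 0.0858).

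In microglia, Slc25a37, the mitochondrial iron importer mitoferrin-1, rose from 9.94 ± 1.62 to 118 ± 3.44 CPM with Aβ42 fibrils, log2 3.55 (SE 0.13, adjusted p = 1.15e-09), and to 99.7 ± 5.45 CPM with Aβ40 fibrils, log2 3.31 (SE 0.13, adjusted p = 2.37e-09). Bmp2, a growth factor known to induce hepcidin in liver, rose as well, log2 2.92 (SE 0.27, adjusted p = 2.81e-06) and log2 2.53 (SE 0.30, adjusted p = 2.45e-05). Neither rise was limited to microglia. In astrocytes Slc25a37 rose by log2 2.16 with Aβ42 and 1.34 with Aβ40 fibrils. Bmp2 there had means of 2.10 CPM in control, from 3, 14 and 30 counts, 7.41 CPM with Aβ42 and 7.08 CPM with Aβ40 fibrils. Ncoa4, which hands ferritin over for breakdown, fell from 434 ± 37.6 to 196 ± 3.38 CPM with Aβ42 fibrils and to a mean of 194 CPM with Aβ40 fibrils, log2 -1.15 (SE 0.10, adjusted p = 1.47e-06) and log2 -1.16 (SE 0.10, adjusted p = 1.81e-06). Aco1, which encodes the iron-sensing RNA-binding protein IRP1, fell with both fibrils, log2 -1.04 (SE 0.10, adjusted p = 3.57e-06) and log2 -1.14 (SE 0.10, adjusted p = 2.65e-06). Heph fell with Aβ42 and Aβ40 fibrils, log2 -1.21 (SE 0.11, adjusted p = 2.10e-06) and log2 -1.06 (SE 0.11, adjusted p = 8.60e-06). The endosomal ferric reductase Steap3 fell with both as well, log2 -0.46 (SE 0.16, adjusted p = 0.0320) and log2 -1.46 (SE 0.22, adjusted p = 1.69e-04).

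**Figure D4:**
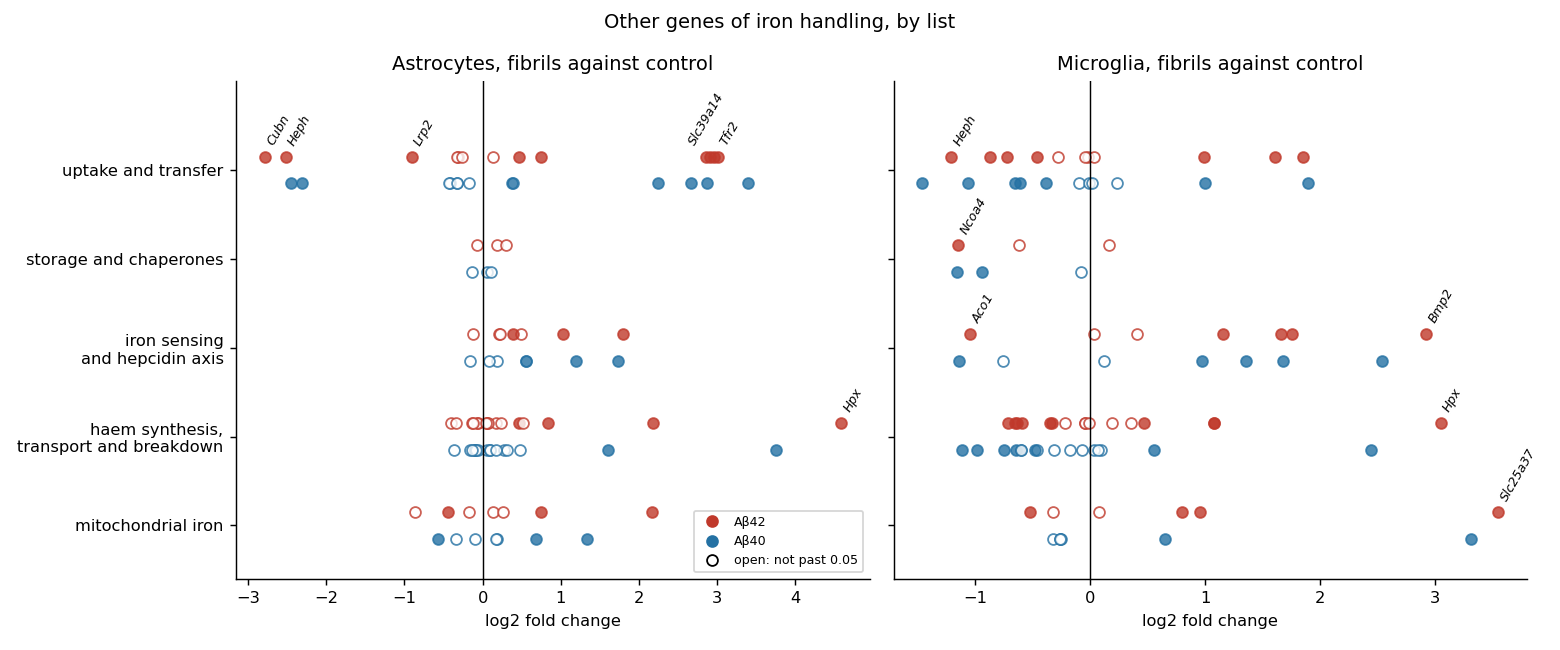
Log2 differences from control of the other iron genes by list, in astrocytes and in microglia, with 1 point per gene and fibril, filled where the adjusted p-value was under 0.05, red for Aβ42 and blue for Aβ40 fibrils, and with the genes named by rule written beside their Aβ42 points. Hpx lies farthest to the right in astrocytes and Slc25a37 in microglia.

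The genes most like Lcn2 across the 18 libraries, by Pearson's r of log2 CPM over 11581 genes, were Nfkbia (0.996), Orm1 (0.988), Ifi44 (0.984), Ccl7 (0.983) and Wfdc21 (0.983). Nfkbia encodes the inhibitor IκBα, Orm1 an acute-phase plasma protein and Ccl7 a chemokine. For Slc40a1 they were Tgfbr2 (0.990), Tln1, Map3k1, Galns and Elovl7, down to 0.980. For Tfrc they were Nap1l5 (0.932), Pla2g7, Gins4, C1galt1c1 and LOC100912071, down to 0.900. These values describe likeness over points that share libraries, depth and the 6 groups. By rank correlation 0 of the 5 genes for Lcn2, 1 for Slc40a1 and 4 for Tfrc were again among the 5 most alike.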

How the data were processed

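RNA of the 18 samples was prepared with a TruSeq Stranded mRNA kit and sequenced by a company, and the authors deposited 1 table of raw counts per gene symbol for each library. The build rn5 and the tools STAR, Salmon and DESeq2 are named in the submitters' processing notes, and their versions, the annotation, the handling of shared reads and of strand are not given in the sources used here. The rows of reads on no gene or on more than 1 gene, 26.0% to 34.2% of a library in astrocytes and 21.7% to 24.5% in microglia, were left out. In R 4.3.3, edgeR 4.0.16 scaled counts by TMM, removed low genes by filterByExpr and fitted the 9 libraries of a cell type together, or all 18 for comparisons between cell types, on the 16704 symbols shared by both. Tests were two-sided glmQLFTest with Benjamini-Hochberg adjustment over all genes tested, called at 0.05. The 10 genes and the lists were chosen with earlier results of these data known. Other iron genes are named by a rule, the 3 with the largest rise and the 3 with the largest fall of those called without overlap of the libraries, and 1 gene that the rule names is not reported here. Of 60 listed symbols, Pcbp1, Neo1, Erfe and Flvcr1 were not analysed here, and Hfe2 and Hjv were each listed for 1 cell type. Likeness was measured on log2 CPM with a prior count of 2.

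Replicates of every group differed by more than sampling noise. Replicate numbers are shared by the groups, but they are not stated to mark a shared culture, so no block was used. Same-numbered libraries did not deviate together on average (mean r = -0.16 in astrocytes and 0.00025 in microglia). Of the differently numbered pairs of astrocyte libraries, 10 of 18 correlated above 0.1, up to 0.53, among them control replicate 2, Aβ42 replicate 3 and Aβ40 replicate 1, which also had the lowest Ftl1 of their groups. Neither the main fit nor a block on the replicate number accounts for this likeness. Alternatives were DESeq2 (1.42.0) size factors or Wald test, library totals, other filters, the 2 groups alone, a replicate block and leaving out each library. The procedure was tested on simulated data. Promoter sequences are from RefSeq (GRCr8), which has entries for 6 of the 10 genes and none for Slc11a1, Fth1, Ftl1 and Hp.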

Additional observations from a re-analysis of the deposited data

Results flagged for a closer look

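The response to Aβ42 fibrils differed between microglia and astrocytes for 8 of the 10 genes by edgeR's test of the difference itself (log2, microglia minus astrocytes). It was higher in microglia for Slc11a1 (2.31), Tfrc (1.47) and Fth1 (1.43). It was lower for Steap4 (-3.29), Cp (-2.21), Slc11a2 (-1.86), Slc40a1 (-1.69) and Lcn2 (-0.87). The Lcn2 call was lost in 11 of 19 alternative analyses. With Aβ40 fibrils 7 genes differed, with higher responses in microglia for Slc11a1 (2.61), Tfrc (1.29) and Fth1 (0.998) and lower ones for Steap4 (-3.05), Cp (-1.79), Slc11a2 (-1.93) and Slc40a1 (-1.81). For Slc11a1 and Tfrc the changes within each cell type were called and had opposite signs. The call for Slc11a1 in astrocytes with Aβ42 fibrils and that for Tfrc in microglia with Aβ40 fibrils depended on the libraries used, as given above. Microglial markers fell in the same astrocyte cultures, and their part in the fall of Slc11a1 was not tested. For Slc40a1 the astrocyte libraries held 2 to 20 counts, and with Aβ42 fibrils its difference no longer passed without Aβ42 astrocyte replicate 1 (adjusted p = 0.0514).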

How the results depend on the processing

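Of the single-gene results, 1166 kept direction and side of the threshold under the alternatives, 49 lost the call, 12 gained it and 36 changed sign, each of them a result that had not passed the test. Of the counts of genes that rose or fell, 238 stayed within 1.5 times and 26 moved. Requiring 10 counts in every library removes Steap4, Hp and Slc40a1 in astrocytes and gave 3 genes up with Aβ42 and 3 with Aβ40 fibrils, and 2 lower responses in microglia for each fibril. Fitting the 2 groups alone gave 2 genes higher with Aβ42 than Aβ40 fibrils in astrocytes, and 0 higher and 0 lower in microglia. Leaving out 1 library gave 1 to 2 genes down in astrocytes with Aβ42 fibrils, 1 to 2 down in microglia with Aβ42 fibrils, 4 to 5 up in microglia with Aβ40 fibrils, and 0 to 6 higher and 0 to 2 lower between the fibrils in microglia. No other scaling changed a direction that had been called.

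With the replicate number as a block, 0 of the 9 genes were lower between the fibrils in microglia in place of 1 (over all genes 400 higher and 352 lower in place of 1222 and 976), Cp lost its call with Aβ40 fibrils in microglia (adjusted p = 0.0636), Tfrc its call between control cells (0.135) and Lcn2 its difference of responses (0.0526), and Ftl1 gained one in microglia with Aβ42 fibrils (0.0124). Whether the numbers mark shared cultures is not stated, and 2 of 9 same-numbered pairs of astrocyte libraries and 1 of 9 of microglia correlated above 0.1. The block also turned the sign of the uncalled Slc40a1 (Aβ42 astrocytes, 0.028), Ftl1 (fibrils in astrocytes, -0.019, and response to Aβ42, -0.015) and Hp (response to Aβ42, -0.036).

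Other changes of sign were of Slc40a1 in Aβ42 astrocytes (0.076 by DESeq2, 0.013 with no filter, 0.013 with the 2 groups alone) and of Ftl1 in Aβ40 microglia (0.0087 with DESeq2 size factors, 0.0088 by its test, 0.0026 with the 2 groups alone). Leaving out 1 library turned the following, with the range of log2 values. In astrocytes, Slc40a1 ranged from -0.22 to 0.98 with Aβ42 and -0.05 to 1.16 with Aβ40 fibrils, Fth1 from -0.276 to 0.0627 with Aβ42 fibrils, and Ftl1 from -0.19 to 0.66, -0.23 to 0.63 and, between the fibrils, -0.20 to 0.21. In microglia, Ftl1 ranged from -0.12 to 0.14 with Aβ40 fibrils and Slc40a1 from -0.185 to 0.0690 between the fibrils. Differences of responses ranged from -0.22 to 0.57 and -0.61 to 0.20 for Ftl1 and -0.24 to 0.27 for Hp. An alternative chosen after seeing the data left out both astrocyte libraries with another style of table name, and it turned Ftl1 (-0.025 with Aβ42, -0.23 with Aβ40 fibrils, 0.20 for the response) and Slc40a1 (-0.054 with Aβ40 fibrils) and no call. The cause was not tested. Depth limits Slc40a1 in astrocytes and Hp in microglia, both near 3 counts in the smallest libraries.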

Other observations

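RNA of marker genes of other cell types that handle iron was also found in the microglia cultures, and the sums over these genes are given here. Such sums do not show that the cells themselves were present. The 3 choroid plexus markers, of a tissue known to make transferrin and transthyretin, summed to 2073 to 2666 CPM in control microglia, 2263 to 2862 CPM with Aβ42 fibrils and 2327 to 3016 CPM with Aβ40 fibrils, against at most 67.1 CPM in the astrocyte cultures. Nearly all of it was Ttr (mean 2500.3 CPM in control microglia on the scale of all 18 libraries), while Folr1 was at 37.2 CPM there and 52.2 CPM in control astrocytes. Kl had means of 88.6, 28.5 and 48.6 CPM in control, Aβ42 and Aβ40 fibril-treated microglia, and 1 of the 3 markers fell with each fibril. The 8 markers of the oligodendrocyte lineage, cells rich in ferritin, summed to 1963 to 2167, 2180.0 to 2833 and 2206 to 2666 CPM in the same groups, with 5 of 8 up with Aβ42 and 4 of 8 with Aβ40 fibrils and 1 down with each. In astrocytes they summed to 1725 to 2573 CPM in control, 1272 to 1372 CPM with Aβ42 fibrils and 1346 to 1366 CPM with Aβ40 fibrils, with 5 of 8 down with each fibril. Their part in the levels of Fth1, Ftl1 and Cp was not tested.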
